A study of Mus musculus with 77 samples.

Results

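The transforming growth factor beta (TGF-beta) and platelet-derived growth factor (PDGF) systems were followed in mouse liver through 10 genes. The 6 ligands were Tgfb1, Tgfb2, Tgfb3, Pdgfa, Pdgfb and Pdgfc, and the 4 receptors were Tgfbr1, Tgfbr2, Pdgfra and Pdgfrb. They were taken by name from the 55487 genes of the count table, after gene identifiers had been matched to symbols of the mouse genome build GRCm38. The rule used no measured value, though earlier results of these data were known. All 10 were found, and all 10 were among the 14904 genes that passed a filter on low counts and were tested.

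The libraries came from 77 male C57BL/6JRj mice, 1 liver per library, bought at 5 to 6 weeks of age. DIO-MASH mice (diet-induced obesity with metabolic dysfunction-associated steatohepatitis, MASH) had eaten a diet rich in fat, fructose and cholesterol for 34 weeks. Each had a liver biopsy 4 weeks before treatment and was included by its scores of steatosis and fibrosis. They were then dosed once daily under the skin with vehicle (9 mice killed at 8 weeks, 8 at 16 weeks and 7 at 24 weeks) or with the GLP-1 receptor agonist semaglutide at 123 µg per kg (7, 8 and 8 mice). Chow reversal mice (7, 8 and 8) were DIO-MASH mice returned to regular chow and given vehicle, and 7 chow-fed mice that never had the MASH diet received vehicle for 24 weeks. No gene was altered in any group, and age at death is not given in the labels.

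Libraries held 8883190 to 37631125 estimated counts (median 16406976). In 3 libraries with numbers outside the main run, from 2 semaglutide mice of 16 weeks and 1 of 24 weeks, predicted genes took 3.83 to 4.65% of the counts, against 1.55 to 3.20% in the other 74. Results that rest on these 3 are given with and without them. A summed level of 10 hepatocyte markers between 49200 and 150000 CPM (counts per 1000000 counts, after scaling of the libraries), found across all groups, matched the labelled tissue.

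TGF-beta is secreted in a latent form bound to matrix proteins or to the surface of carrier cells, and integrins or proteases release it. Free ligand joins the type II receptor TGFBR2 to the type I receptor TGFBR1, which phosphorylates SMAD2 and SMAD3 and so switches on genes of the extracellular matrix. PDGF chains pair into dimers that join 2 receptor tyrosine kinases, PDGFRA or PDGFRB, and in liver this system is best known for driving hepatic stellate cells to divide and migrate while TGF-beta drives them to make collagen.

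The whole set was higher in vehicle-treated DIO-MASH mice than in chow-fed mice at 24 weeks, a comparison called "with the diet" below. A biopsy and inclusion by scores are given for the DIO-MASH mice alone, so the diet cannot be told apart from these. In vehicle-treated DIO-MASH mice of 24 weeks all 10 genes were higher than in chow-fed mice of the same time (edgeR quasi-likelihood test, Benjamini-Hochberg adjusted p below 0.05 over the 14904 genes), where 25.8% of all genes tested were called higher. The median log2 fold change of the 10 genes was 1.73, against -0.02 over all genes. Pdgfb and Tgfb2 rose most, by 6.07-fold and 5.43-fold, followed by Pdgfra at 4.34-fold, Pdgfrb at 3.78-fold, Tgfb3 at 3.45-fold and Tgfb1 at 3.20-fold. Tgfbr2 (2.54-fold), Pdgfa (2.18-fold), Tgfbr1 (1.92-fold) and Pdgfc (1.54-fold) rose least. In 7 of the 10 genes no vehicle mouse of 24 weeks overlapped with a chow-fed mouse, the exceptions being Tgfb3, Tgfbr1 and Pdgfc. How many of all genes tested separate these groups in this way was not counted. All values are from bulk tissue, in which more cells of a type and more RNA per cell cannot be told apart.

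Most of the set was lower with either treatment by 24 weeks. With semaglutide, every one of the 10 estimates was below vehicle at 8, 16 and 24 weeks, and 3, 6 and 8 genes passed the test. The shares of all genes called lower were 3.51%, 5.80% and 13.6% at these times. Chow reversal lowered 9 genes at 8 weeks, 7 at 16 weeks and all 10 at 24 weeks, where 17.9%, 16.2% and 19.1% of all genes were called lower. The median log2 fold change of the 10 genes was -0.59, -0.56 and -0.74 with semaglutide and -0.74, -0.68 and -0.74 with chow reversal, while that of all genes lay between -0.03 and 0.04. Comparisons of a time point share their vehicle mice, so the 2 treatments' values are not independent of each other.

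**Figure D1:**
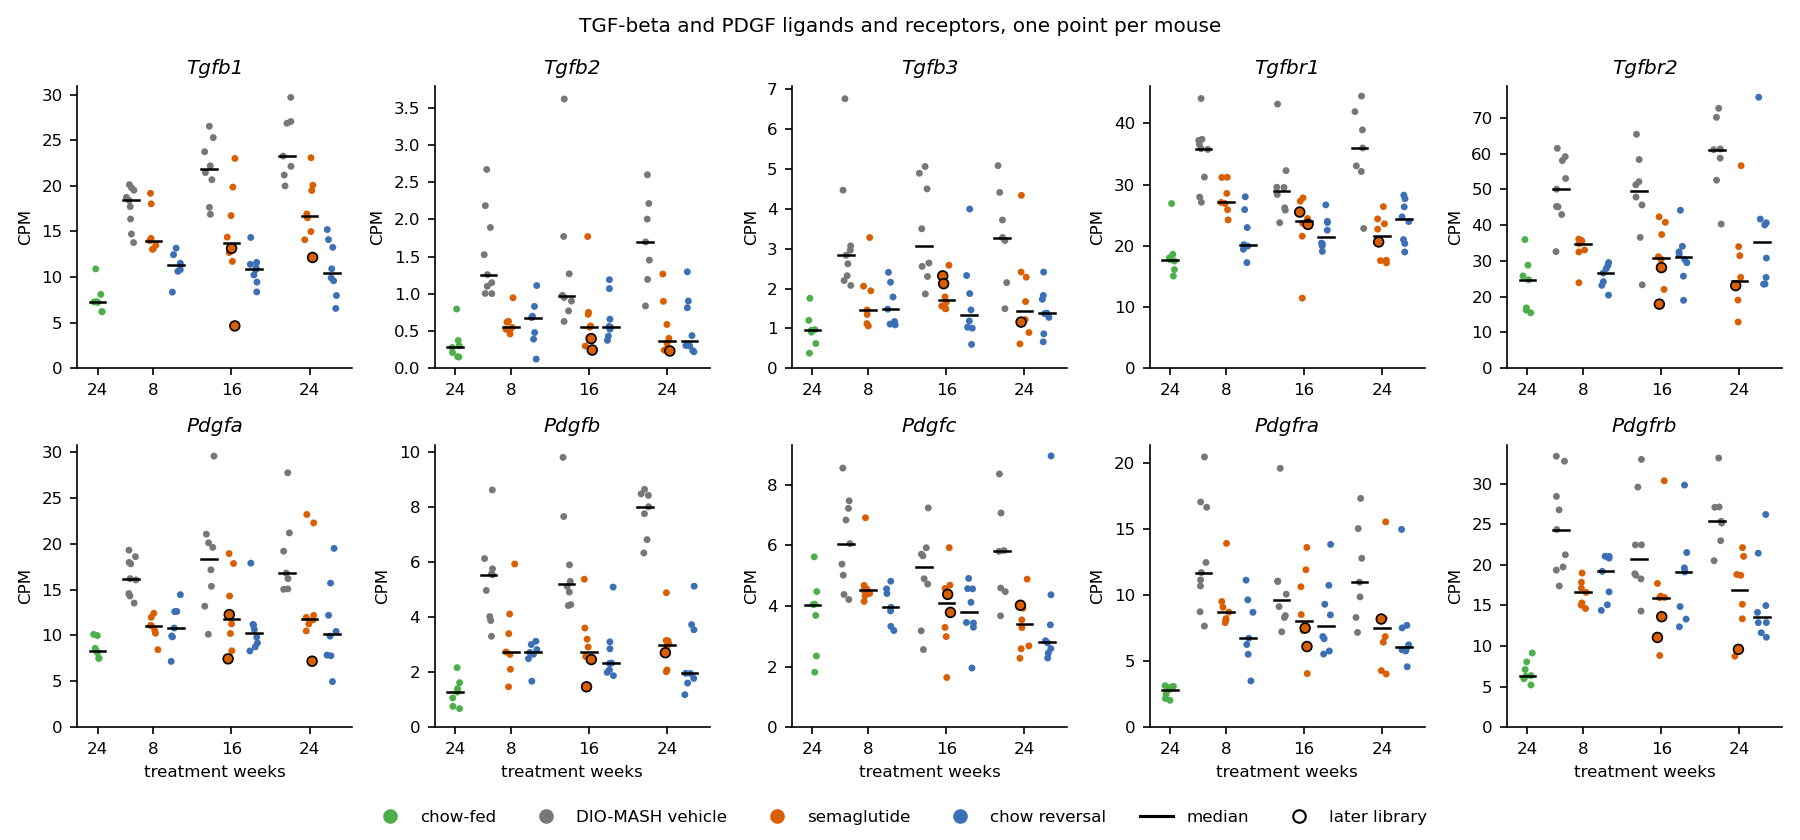
Level of each gene in each mouse, in CPM (linear axis from 0), by treatment weeks; each point is 1 mouse, black bars are group medians and black outlines mark the 3 libraries with later numbers. Vehicle mice of 24 weeks lay above every chow-fed mouse in 7 of the 10 panels, a separation not counted over all genes. Semaglutide mice of 24 weeks lay below every vehicle mouse of that time for Pdgfb alone.

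The counts at 8 and 16 weeks with semaglutide moved with the processing. At 8 weeks the 3 genes became 6 with library totals or with DESeq2, 7 when the fit held just the compared groups and 1 with no filter on low counts. At 16 weeks the count was 2 with no filter and 2 with only the compared groups. It fell from 6 genes to 1, Pdgfb, when the 2 semaglutide libraries of that time with later numbers were left out along with the third, and to 1 with sets of library numbers in the model. It fell to 2 without the single vehicle mouse of 16 weeks (replicate 6) in which 8 of the 10 genes were the highest of their group. The semaglutide counts at 24 weeks were 7 without the later libraries and 9 without semaglutide replicate 3, a mouse in which 8 of the 10 genes were the highest of the semaglutide group.

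**Figure D2:**
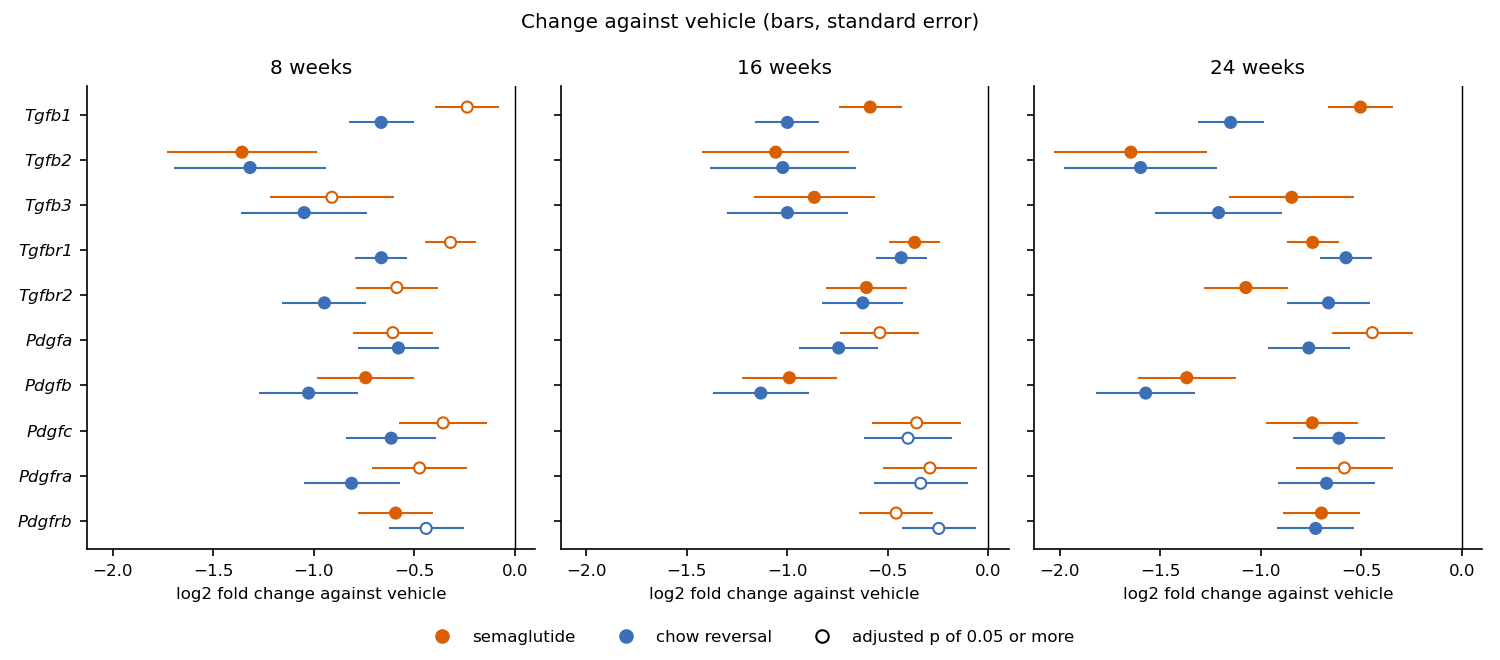
Log2 fold change of each gene against vehicle at 8, 16 and 24 weeks, with bars of 1 standard error, for semaglutide and chow reversal; filled points have an adjusted p below 0.05. All 60 points lie below 0, and Tgfb2 and Pdgfb lie farthest from it at 24 weeks.

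Tgfb1 encodes the TGF-beta isoform most studied in fibrosis, made by macrophages, platelets, endothelial cells and stellate cells. The gene (ENSMUSG00000002603) lies at chr7:25687002-25705077 on the plus strand. Chow-fed mice ranged from 6.19 to 10.9 CPM (median 7.26) and vehicle mice of 24 weeks from 19.98 to 29.7 CPM (median 23.3), with no overlap, a log2 fold change of 1.68 ± 0.17 (SE, adjusted p = 6e-13). At 24 weeks semaglutide mice ranged from 12.1 to 23.1 CPM (median 16.7) and chow reversal mice from 6.56 to 15.2 CPM (median 10.4). Every chow reversal mouse lay below every vehicle mouse, while 2 of the 8 semaglutide mice overlapped with vehicle. The fall against vehicle was -0.50 ± 0.16 (SE, adjusted p = 0.016) with semaglutide and -1.15 ± 0.16 (SE, adjusted p = 3.2e-08) with chow reversal.

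In the main fit Tgfb1 was the only member that passed a direct test between the treatments. Tgfbr2 joined it when a single semaglutide mouse (replicate 3 of 24 weeks) was left out. At 24 weeks it was 1.57-fold higher with semaglutide than with chow reversal, a log2 difference of 0.65 ± 0.16 (SE, adjusted p = 0.0034), and 5 of the 8 semaglutide mice lay above every chow reversal mouse. In that comparison 7.77% of all genes were called higher. The 2 groups compared differed both in the drug and in the return to chow. At 8 and 16 weeks none of the 10 genes passed this test, where 6.16% and 9.80% of all genes were called in either direction. Calls did arise at 8 weeks with library totals and with only the compared groups, as the last section gives. Tgfb1 stood at 0.43 (95% interval 0.09 to 0.77, adjusted p = 0.12) at 8 weeks and 0.41 (95% interval 0.09 to 0.73, adjusted p = 0.088) at 16 weeks. Without the later libraries the 16-week difference was 0.60 with an adjusted p of 0.0053. One of them held the lowest Tgfb1 level of the semaglutide mice of 16 weeks, 4.64 CPM, against 11.7 to 22.99 in the other 7.

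At 8 weeks Tgfb1 ranged from 13.8 to 20.1 CPM (median 18.4) in vehicle, 13.03 to 19.2 (median 13.98) in semaglutide and 8.34 to 13.2 (median 11.3) in chow reversal mice. Vehicle and chow reversal did not overlap, whereas only 3 of 7 semaglutide mice lay below all vehicle mice. The log2 fold change was -0.24 (95% interval -0.55 to 0.08, adjusted p = 0.43) with semaglutide and -0.67 ± 0.16 (SE, adjusted p = 0.001) with chow reversal. At 16 weeks the values were -0.59 ± 0.16 (SE, adjusted p = 0.0091) and -0.999 ± 0.16 (SE, adjusted p = 7.7e-07), and again no chow reversal mouse overlapped with vehicle. Without the later libraries the semaglutide value of 16 weeks was -0.39 with an adjusted p of 0.098.

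The sequence just before the RefSeq start site is shown for Tgfb1, the only member called between the treatments in the main fit. It is also shown for Tgfb2, which fell most with semaglutide at 24 weeks, and for Pdgfra, which stayed farthest above chow. RefSeq promoters on GRCm38.p6 were found for 7 of the 10 genes and not for Tgfb3, Pdgfb and Pdgfrb. The 250 bases upstream of the start are printed 5′ to 3′ along the gene, with capitals for matches to a GC box (GGGCGG), an AP-1 site (TGANTCA), a SMAD box (CAGAC) or a TATA box (TATAAA) on either strand.
Tgfb1, chr7:25686752-25687001, plus strand: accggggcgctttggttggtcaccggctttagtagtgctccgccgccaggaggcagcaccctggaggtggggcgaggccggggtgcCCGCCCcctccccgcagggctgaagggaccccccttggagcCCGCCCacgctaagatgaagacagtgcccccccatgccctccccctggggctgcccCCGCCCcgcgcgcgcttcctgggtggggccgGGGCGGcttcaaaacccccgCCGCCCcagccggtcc
Tgfb2, chr1:186705990-186706239, minus strand: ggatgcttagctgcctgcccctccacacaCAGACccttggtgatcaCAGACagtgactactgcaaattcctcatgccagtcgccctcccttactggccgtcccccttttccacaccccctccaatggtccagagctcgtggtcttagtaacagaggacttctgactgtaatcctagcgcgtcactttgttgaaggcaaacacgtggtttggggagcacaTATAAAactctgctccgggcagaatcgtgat
Pdgfra, chr5:75152001-75152250, plus strand: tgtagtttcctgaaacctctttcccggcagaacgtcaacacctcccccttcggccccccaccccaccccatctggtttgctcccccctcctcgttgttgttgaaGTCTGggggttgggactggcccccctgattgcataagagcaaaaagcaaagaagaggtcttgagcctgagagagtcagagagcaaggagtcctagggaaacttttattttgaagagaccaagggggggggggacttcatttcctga
The Tgfb1 stretch held 5 GC boxes and no match to the other 3 motifs, and 75.2% of its bases were G or C against a median of 52.4% over 32817 promoters. The Tgfb2 stretch held a TATA box whose first base lay 31 bases before the start, and 2 SMAD boxes. The Pdgfra stretch held a single SMAD box on the other strand. Bases just after this stretch lay in no GENCODE transcript, and the annotated gene starts farther on, at chr5:75152292. The 7 genes had 9 promoters, 2 each for Tgfbr1 and Pdgfa. Of the 9, 4 held a GC box, 5 a SMAD box, 1 a TATA box and 0 an AP-1 site, where 32.7%, 42.2%, 12.4% and 6.75% of all promoters of that length hold them. These are matches of letters in a window, with no measurement of binding.

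Tgfb2 and Tgfb3 encode the other TGF-beta ligands, which are less abundant in liver and are made by fibroblasts and biliary cells among others. Tgfb2 (ENSMUSG00000039239, chr1:186622792-186705989, minus strand) was the least abundant of the 10 genes, with 2 to 118 counts per library, so its errors are the widest. It ranged from 0.151 to 0.796 CPM (median 0.279) in chow-fed mice and from 0.837 to 2.6 CPM (median 1.698) in vehicle mice of 24 weeks, which did not overlap. At 24 weeks it ranged from 0.232 to 1.27 CPM (median 0.369) with semaglutide and 0.221 to 1.296 CPM (median 0.372) with chow reversal, and 6 of 8 mice in each group lay below every vehicle mouse. The falls were -1.65 ± 0.38 (SE, adjusted p = 0.00088) and -1.597 ± 0.38 (SE, adjusted p = 0.00052). Against chow-fed mice Tgfb2 was then at 0.80 (95% interval -0.10 to 1.69, adjusted p = 0.17) with semaglutide and 0.85 (95% interval -0.05 to 1.74, adjusted p = 0.31) with chow reversal.

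Tgfb2 was lower already at 8 weeks. Vehicle mice of 8 weeks ranged from 1.003 to 2.67 CPM (median 1.26), and all 7 semaglutide mice lay below them, from 0.461 to 0.947 CPM (median 0.549). Chow reversal mice of 8 weeks ranged from 0.123 to 1.11 CPM (median 0.6799), and 6 of 7 lay below vehicle. The falls of 8 weeks were -1.36 ± 0.37 (SE, adjusted p = 0.017) and -1.32 ± 0.38 (SE, adjusted p = 0.0053). At 16 weeks they were -1.06 ± 0.37 (SE, adjusted p = 0.044) and -1.02 ± 0.36 (SE, adjusted p = 0.026). Neither passed at 16 weeks without the vehicle mouse at 3.62 CPM, the next highest being at 1.77 CPM, with -0.65 (adjusted p = 0.28) and -0.62 (adjusted p = 0.22). Without the later libraries the semaglutide value of 16 weeks was -0.81 (adjusted p = 0.22).

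Tgfb3 (ENSMUSG00000021253, chr12:86056745-86079041, minus strand) overlaps the protein-coding gene Ttll5 on the opposite strand at its end, and since the strand setting of the counting is not given, reads there cannot be assigned with certainty. It ranged from 0.378 to 1.76 CPM (median 0.955) in chow-fed and 1.495 to 5.09 CPM (median 3.28) in vehicle mice of 24 weeks, where 6 of 7 vehicle mice lay above all chow-fed mice. With semaglutide it ranged from 0.612 to 4.34 CPM (median 1.45) and with chow reversal from 0.664 to 2.42 CPM (median 1.38), and both overlapped with vehicle. The falls of 24 weeks were -0.85 ± 0.31 (SE, adjusted p = 0.037) and -1.21 ± 0.32 (SE, adjusted p = 0.0016). The semaglutide value was -0.75 (adjusted p = 0.076) without the later libraries. At 8 weeks the values were -0.91 (95% interval -1.52 to -0.30, adjusted p = 0.061) with semaglutide and -1.05 ± 0.31 (SE, adjusted p = 0.0073) with chow reversal, and at 16 weeks -0.87 ± 0.30 (SE, adjusted p = 0.046) and -0.999 ± 0.30 (SE, adjusted p = 0.008). The semaglutide value of 16 weeks was -0.94 (adjusted p = 0.084) without the later libraries.

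Tgfbr1 and Tgfbr2 encode the signalling receptors. Both rose with the diet and fell with both treatments by 24 weeks. Tgfbr2 (ENSMUSG00000032440, chr9:116084293-116175360, minus strand) ranged from 15.5 to 35.97 CPM (median 24.7) in chow-fed and 40.3 to 72.7 CPM (median 61.1) in vehicle mice of 24 weeks, with no overlap. Semaglutide mice ranged from 12.9 to 56.6 CPM (median 24.3), and 7 of 8 lay below every vehicle mouse. Chow reversal mice ranged from 23.5 to 75.8 CPM (median 35.4), of which 5 of 8 lay below all vehicle mice and 1 above them all. The falls of 24 weeks were -1.07 ± 0.21 (SE, adjusted p = 8.9e-05) with semaglutide and -0.66 ± 0.21 (SE, adjusted p = 0.0088) with chow reversal.

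Against chow-fed mice Tgfbr2 stood at 0.27 (95% interval -0.15 to 0.69, adjusted p = 0.33) with semaglutide and was called higher with chow reversal, at 0.68 ± 0.21 (SE, adjusted p = 0.035). The direct difference between the treatments was -0.41 (95% interval -0.82 to -0.01, adjusted p = 0.15). It reached -0.64 (adjusted p = 0.021) without semaglutide replicate 3, the highest of that group. At 8 weeks Tgfbr2 ranged from 32.6 to 61.5 CPM (median 50.1) with vehicle and 20.5 to 29.6 (median 26.6) with chow reversal, which did not overlap, and from 23.9 to 36.1 (median 34.8) with semaglutide. The values of 8 weeks were -0.59 (95% interval -0.996 to -0.18, adjusted p = 0.072) with semaglutide and -0.95 ± 0.21 (SE, adjusted p = 0.00028) with chow reversal. At 16 weeks they were -0.61 ± 0.20 (SE, adjusted p = 0.037) and -0.62 ± 0.20 (SE, adjusted p = 0.014), and the former was -0.46 (adjusted p = 0.21) without the later libraries.

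Tgfbr1 (ENSMUSG00000007613, chr4:47353222-47414931, plus strand) ranged from 15.1 to 26.9 CPM (median 17.8) in chow-fed and 22.8 to 44.5 CPM (median 36) in vehicle mice of 24 weeks. Chow-fed and vehicle mice overlapped, since 6 of 7 vehicle mice lay above all chow-fed mice. At 24 weeks it ranged from 17.2 to 26.4 CPM (median 21.7) with semaglutide and 19 to 28.3 CPM (median 24.4) with chow reversal, and 5 and 3 of 8 mice lay below every vehicle mouse. The falls were -0.74 ± 0.13 (SE, adjusted p = 1.8e-05) and -0.58 ± 0.13 (SE, adjusted p = 0.00026). Against chow it stood at 0.20 (95% interval -0.07 to 0.46, adjusted p = 0.25) with semaglutide and 0.36 (95% interval 0.10 to 0.63, adjusted p = 0.087) with chow reversal, so that neither passed the test. The semaglutide effect of 8 weeks was -0.32 (95% interval -0.57 to -0.07, adjusted p = 0.12), and that of 24 weeks differed from it by -0.42 (95% interval -0.78 to -0.06, adjusted p = 0.97). At 16 weeks the values were -0.37 ± 0.13 (SE, adjusted p = 0.044) with semaglutide and -0.43 ± 0.13 (SE, adjusted p = 0.0059) with chow reversal. The former was -0.37 (adjusted p = 0.089) without the later libraries.

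Pdgfb and Pdgfa encode the classical PDGF chains, and Pdgfc a chain that is secreted with a blocking domain and must be cut to bind a receptor. Pdgfb rose most with the diet and separated the treated mice best. Pdgfb (ENSMUSG00000000489, chr15:79995874-80014977, minus strand) ranged from 0.671 to 2.16 CPM (median 1.27) in chow-fed and 6.33 to 8.65 CPM (median 8.01) in vehicle mice of 24 weeks. The 2 groups lay far apart, at 2.601 ± 0.28 (SE, adjusted p = 1.1e-12). Semaglutide mice ranged from 2.01 to 4.88 CPM (median 3) and chow reversal mice from 1.18 to 5.12 CPM (median 1.95). All 16 lay below every vehicle mouse, with falls of -1.37 ± 0.24 (SE, adjusted p = 2.4e-05) and -1.57 ± 0.25 (SE, adjusted p = 3.3e-07).

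Pdgfb nonetheless stayed above chow, at 1.23 ± 0.27 (SE, adjusted p = 0.00025) with semaglutide, where 6 of 8 mice lay above all chow-fed mice, and at 1.03 ± 0.27 (SE, adjusted p = 0.01) with chow reversal, where 3 of 8 did. At 8 weeks vehicle mice ranged from 3.303 to 8.62 CPM (median 5.54), semaglutide mice from 1.46 to 5.93 (median 2.73) and chow reversal mice from 1.67 to 3.12 (median 2.72). Only the chow reversal mice were clear of vehicle, and the falls were -0.74 ± 0.24 (SE, adjusted p = 0.05) and -1.03 ± 0.25 (SE, adjusted p = 0.00084). The semaglutide value lay just inside the threshold and was -0.67 (adjusted p = 0.076) with sets of library numbers in the model. At 16 weeks the falls were -0.99 ± 0.24 (SE, adjusted p = 0.004) and -1.13 ± 0.24 (SE, adjusted p = 0.00013), and 7 of 8 mice in each group lay below all vehicle mice. Without the later libraries the semaglutide value of 16 weeks was -0.81 (adjusted p = 0.045). Gm41361 overlaps the start of Pdgfb on the other strand, as 6330403L08Rik, Gm42802, Gm16000 and Gm29491 overlap Pdgfa, Pdgfra, Pdgfc and Tgfb2, and the same limit on assigning reads holds.

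Pdgfa (ENSMUSG00000025856, chr5:138976014-138997370, minus strand) codes for the chain that binds PDGFRA. It ranged from 7.49 to 10.1 CPM (median 8.28) in chow-fed and 15.03 to 27.8 CPM (median 16.8) in vehicle mice of 24 weeks, with no overlap. At 24 weeks semaglutide mice spread widely, from 7.19 to 23.2 CPM (median 11.8), as 6 of 8 lay below every vehicle mouse and the other two within the vehicle range. The estimate was -0.44 (95% interval -0.85 to -0.04, adjusted p = 0.098), which did not pass the test. Chow reversal mice ranged from 4.96 to 19.5 CPM (median 10.2) and fell by 0.76 ± 0.20 (SE, adjusted p = 0.002). At 8 weeks semaglutide mice ranged from 8.45 to 12.4 CPM (median 11.03) and vehicle mice from 13.5 to 19.3 CPM (median 16.2). All 7 of the former lay below all 9 of the latter, at -0.61 (95% interval -1.01 to -0.21, adjusted p = 0.055), just short of the threshold. Chow reversal gave -0.58 ± 0.20 (SE, adjusted p = 0.022) at 8 weeks and -0.74 ± 0.20 (SE, adjusted p = 0.0024) at 16 weeks, and semaglutide -0.54 (95% interval -0.93 to -0.15, adjusted p = 0.057) at 16 weeks.

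Pdgfc (ENSMUSG00000028019, chr3:81036416-81214040, plus strand) rose least with the diet. It ranged from 1.81 to 5.62 CPM (median 4.05) in chow-fed and 3.67 to 8.36 CPM (median 5.801) in vehicle mice of 24 weeks, and 4 of 7 vehicle mice lay above all chow-fed mice, at 0.62 ± 0.24 (SE, adjusted p = 0.025). With semaglutide it ranged from 2.27 to 4.88 CPM (median 3.41) and with chow reversal from 2.28 to 8.95 CPM (median 2.82), the latter with 1 mouse above every vehicle mouse. The falls of 24 weeks were -0.74 ± 0.23 (SE, adjusted p = 0.012) and -0.61 ± 0.23 (SE, adjusted p = 0.029). The estimates against chow-fed mice lay at -0.12 (95% interval -0.59 to 0.35, adjusted p = 0.72) and 0.01 (95% interval -0.46 to 0.48, adjusted p = 0.99), the closest to 0 of the set. Pdgfc did not pass the test with semaglutide at 8 weeks, at -0.36 (95% interval -0.80 to 0.08, adjusted p = 0.38), or at 16 weeks, at -0.36 (95% interval -0.80 to 0.08, adjusted p = 0.29). With chow reversal it stood at -0.62 ± 0.22 (SE, adjusted p = 0.029) at 8 weeks and -0.40 (95% interval -0.84 to 0.04, adjusted p = 0.18) at 16 weeks.

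Pdgfra and Pdgfrb encode the PDGF receptors, which in liver mark fibroblasts and stellate cells. With chow reversal at 24 weeks they stood farther above chow than the other 8 genes, and with semaglutide Pdgfra stood farthest. Pdgfra (ENSMUSG00000029231, chr5:75152292-75198215, plus strand) ranged from 2.03 to 3.14 CPM (median 2.85) in chow-fed and 7.18 to 17.3 CPM (median 10.99) in vehicle mice of 24 weeks. At that time it ranged from 4.03 to 15.6 CPM (median 7.51) with semaglutide and 4.57 to 14.99 CPM (median 6.07) with chow reversal. Every treated mouse lay above every chow-fed mouse, at 2.90-fold or 1.54 ± 0.27 (SE, adjusted p = 4.1e-06) with semaglutide and 2.72-fold or 1.45 ± 0.27 (SE, adjusted p = 0.00015) with chow reversal. Against vehicle the estimate was -0.58 (95% interval -1.06 to -0.10, adjusted p = 0.066) with semaglutide, which did not pass, and -0.67 ± 0.24 (SE, adjusted p = 0.023) with chow reversal. Without the semaglutide mouse at 15.6 CPM (replicate 3) the estimate was -0.81 with an adjusted p of 0.0088.

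At 8 weeks Pdgfra ranged from 7.66 to 20.5 CPM (median 11.7) with vehicle, 7.92 to 13.9 (median 8.72) with semaglutide and 3.499 to 11.1 (median 6.74) with chow reversal. The groups overlapped, with estimates of -0.47 (95% interval -0.94 to -0.01, adjusted p = 0.24) and -0.81 ± 0.24 (SE, adjusted p = 0.0065). At 16 weeks neither treatment passed, at -0.29 (95% interval -0.76 to 0.17, adjusted p = 0.44) and -0.34 (95% interval -0.80 to 0.13, adjusted p = 0.3).

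Pdgfrb (ENSMUSG00000024620, chr18:61045150-61085061, plus strand) ranged from 5.19 to 9.14 CPM (median 6.35) in chow-fed and 20.5 to 33.2 CPM (median 25.4) in vehicle mice of 24 weeks. Semaglutide mice of 24 weeks ranged from 8.74 to 22.1 CPM (median 16.9) and chow reversal mice from 11.1 to 26.2 CPM (median 13.5). The treated mice lay between the other two groups, as 6 of 8 in each lay below all vehicle mice and 7 and 8 of 8 above all chow-fed mice. The falls were -0.70 ± 0.19 (SE, adjusted p = 0.0046) and -0.73 ± 0.19 (SE, adjusted p = 0.0016), and the distances left from chow were 1.22 ± 0.20 (SE, adjusted p = 1.6e-06) and 1.19 ± 0.20 (SE, adjusted p = 3.8e-05). At 8 weeks semaglutide gave -0.59 ± 0.19 (SE, adjusted p = 0.043) and chow reversal -0.44 (95% interval -0.81 to -0.07, adjusted p = 0.061). At 16 weeks they gave -0.46 (95% interval -0.83 to -0.09, adjusted p = 0.086) and -0.25 (95% interval -0.61 to 0.12, adjusted p = 0.34).

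Set side by side against chow-fed mice at 24 weeks, semaglutide mice were still higher in 6 of the 10 genes (Tgfb1, Tgfb3, Pdgfa, Pdgfb, Pdgfra and Pdgfrb), where 17.9% of all genes were called higher. Chow reversal mice were higher in 5 (Tgfb1, Tgfbr2, Pdgfb, Pdgfra and Pdgfrb), where 5.72% were. That count was 3 with no filter on low counts (without Tgfb1 and Tgfbr2) and 2 when the fit held just these groups (without Pdgfb as well). The median log2 distance from chow over the 10 genes was 0.87 and 0.63, against 1.73 with vehicle. Tgfb3 was at 0.62 (adjusted p = 0.15) with semaglutide replicate 3 left out.

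**Figure D3:**
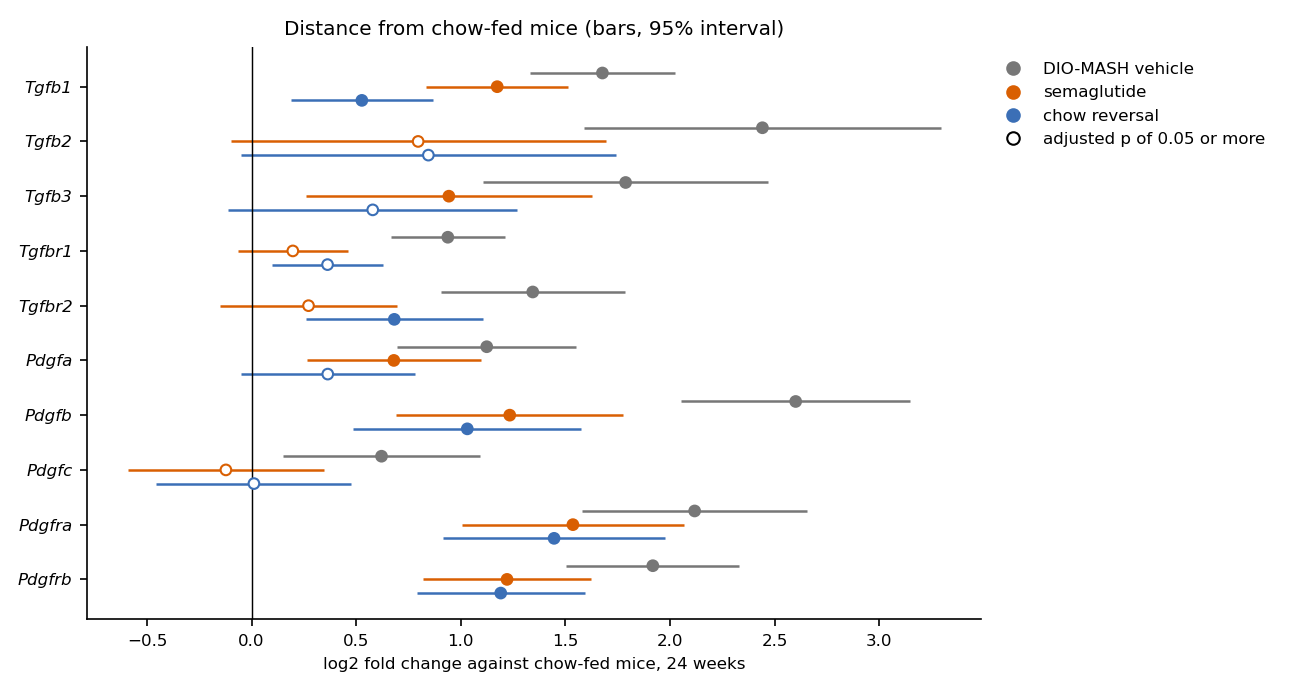
Log2 fold change of each gene against chow-fed mice at 24 weeks, with 95% intervals, for vehicle, semaglutide and chow reversal; filled points have an adjusted p below 0.05. Pdgfra and Pdgfrb remain more than 1 log2 unit above chow under both treatments, while the Pdgfc intervals of both treatments span 0.

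In vehicle mice 0 of the 10 genes differed between 24 and 8 weeks, where 0.792% of all genes were called in either direction (2 of the 10 at an unadjusted p below 0.05, and 0 by DESeq2). These were Tgfb1 at 0.46 (95% interval 0.15 to 0.77, adjusted p = 0.2) and Pdgfb at 0.54 (95% interval 0.09 to 0.997, adjusted p = 0.33). The change in the semaglutide effect from 8 to 24 weeks passed for 0 of 10 genes, where 0.0604% of all genes did, with Tgfbr1 alone at an unadjusted p below 0.05 and 0 by DESeq2. The change in the chow reversal effect also passed for 0, where 0.215% did, with Tgfb1 alone at an unadjusted p below 0.05, at -0.49 (95% interval -0.94 to -0.03, adjusted p = 0.35), and 0 by DESeq2.

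Per kilobase of exon, a scale on which levels of different genes can be compared, Tgfbr2 was the most abundant in vehicle mice of 24 weeks, at 7.27 ± 1.33 CPM per kb (SD, n = 7). Pdgfa followed at 6.01 ± 1.46, Tgfbr1 at 5.45 ± 1.102, Tgfb1 at 4.82 ± 0.712 and Pdgfrb at 4.73 ± 0.723 CPM per kb. Each of these lay within 1 SD of the next, so their order is not fixed. Pdgfb came next at 1.87 ± 0.214, Pdgfra at 1.16 ± 0.364, Pdgfc at 1.12 ± 0.319, Tgfb3 at 0.986 ± 0.366 and Tgfb2 at 0.296 ± 0.105 CPM per kb. Pdgfra, Pdgfc and Tgfb3 were within 1 SD of their neighbours in turn, and Tgfb2 was clear of the rest. With the longest annotated transcript as the length, Tgfb1 ranked at the top instead, and 3 of the 10 ranks changed.

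In chow-fed mice the order per kilobase was Tgfbr2 (2.86 ± 0.934 CPM per kb), Tgfbr1 (2.84 ± 0.593), Pdgfa (2.75 ± 0.345), Tgfb1 (1.51 ± 0.317), Pdgfrb (1.25 ± 0.245) and Pdgfc (0.731 ± 0.253). Pdgfb (0.307 ± 0.124), Tgfb3 (0.287 ± 0.129) and Pdgfra (0.268 ± 0.0455) lay within 1 SD of each other, above Tgfb2 (0.0559 ± 0.0385). The first 3 also lay within 1 SD of each other, and so did Tgfb1 and Pdgfrb. Within families, Tgfb1 made up 81.7 ± 5.94% of the per-kilobase level of the 3 TGF-beta ligands in chow-fed mice (SD, n = 7) and 79.3 ± 5.94% in vehicle mice of 24 weeks (n = 7). The Pdgfb share of the 3 PDGF ligands was 8.05 ± 3.08% with chow, 21.2 ± 3.84% with vehicle, 13 ± 4.3% with semaglutide and 12.7 ± 3.09% with chow reversal at 24 weeks (n = 7, 7, 8 and 8). Pdgfrb held 80.5 ± 4.06% of the level of both PDGF receptors in vehicle mice and 82.3 ± 1.45% in chow-fed mice. These shares used merged exon lengths and depend on that choice. By the longest transcript, levels in vehicle mice of 24 weeks were 1.70 CPM per kb for Pdgfra, 4.78 for Pdgfrb and 9.44 for Tgfb1. Shares on that length were not computed.

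The lists that follow are read against the shares of all genes called. These were 25.8% higher and 22.0% lower with the diet. With semaglutide at 8, 16 and 24 weeks 3.51%, 5.80% and 13.6% were lower and 2.24%, 6.44% and 10.8% higher. With chow reversal 17.9%, 16.2% and 19.1% were lower and 14.2%, 12.1% and 17% higher. Genes given below with log2 fold changes were chosen by their semaglutide effects, so passing a semaglutide test adds no further support for them.

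Most genes that hold TGF-beta latent or release it were higher with the diet. Of 15 such genes, all tested, 14 were higher and 1 (Furin) was lower in vehicle than in chow-fed mice at 24 weeks, with a median log2 fold change of 1.71. Semaglutide lowered 3, 6 and 9 of them at 8, 16 and 24 weeks and raised 0, and chow reversal lowered 9, 8 and 9, where 13.6% of all genes were lower with semaglutide and 19.1% with chow reversal at 24 weeks. The 4 with the smallest p in a joint test of the semaglutide effects were Itgav (an integrin subunit that binds latent TGF-beta), Fbn1 (fibrillin, which anchors latent complexes), Thbs1 (thrombospondin, an activator) and Nrros (a carrier on macrophages). Their log2 fold changes with semaglutide at 24 weeks were -0.69 ± 0.12, -1.31 ± 0.26, -1.96 ± 0.41 and -0.74 ± 0.16 (SE). All 4 passed the test, which their choice by these effects made likely. At 24 weeks Nrros was also higher with semaglutide than with chow reversal, at 0.57 ± 0.16.

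Of 15 co-receptors and SMADs, the latter being the intracellular arm, 2 (Tgfbr3 and Acvrl1) were higher and 1 (Zfyve9) was lower in vehicle than in chow-fed mice, with a median of -0.11. Semaglutide lowered 0, 1 and 2 of them at the 3 times, the last a share near the 13.6% of all genes, and chow reversal lowered 2, 1 and 1 and raised 0, 1 and 1. Acvrl1, a type I receptor of endothelial cells, rose by 2.09 ± 0.23 with the diet and fell by 0.75 ± 0.20 with semaglutide and 1.47 ± 0.21 with chow reversal at 24 weeks. Smad3 was lower with semaglutide at 24 weeks, at -0.44 ± 0.16 (SE), while Smad2 (-0.31 ± 0.15) and the inhibitory Smad6 (0.15 ± 0.15) did not pass. Against chow-fed mice Smad2 and Smad3 were lower with semaglutide at -0.49 ± 0.15 and -0.57 ± 0.16.

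Of 15 genes known to respond to TGF-beta, 11 were higher and 2 (Fn1 and Nox4) were lower with the diet, where 25.8% and 22.0% of all genes were, with a median of 1.28. Semaglutide lowered 5, 5 and 7 at 8, 16 and 24 weeks and raised 1 at 16 weeks, and chow reversal lowered 9 at each time and raised 2 (Fn1 and Nox4) at 24 weeks. The matrix genes Tnc, Col1a1 and Col1a2 were among those with the smallest joint p. With semaglutide at 24 weeks they stood at -1.67 ± 0.27, -1.54 ± 0.32 and -1.34 ± 0.24, and with chow reversal at -1.78 ± 0.27, -2.39 ± 0.33 and -2.13 ± 0.24 (SE). All 6 values passed, though the genes were chosen by their semaglutide effects. Col1a1, at 4.31 ± 0.39 in vehicle against chow-fed mice, was still 2.78 ± 0.37 above chow with semaglutide.

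Of 17 PDGF partners and signalling genes, 7 were higher and 5 lower in vehicle than in chow-fed mice, with a median of 0.27, and semaglutide lowered 1, 2 and 4 and raised 0 at the 3 times. Chow reversal lowered 6, 5 and 5 and raised 0, 1 and 3. The counts lower with the diet and higher with chow reversal at 24 weeks were near the shares over all genes. Plat and Plau, the plasminogen activators that release active PDGF-C and PDGF-D, rose by 3.64 ± 0.42 and 2.496 ± 0.27 with the diet and fell by 1.71 ± 0.34 and 1.15 ± 0.24 with semaglutide at 24 weeks. The kinase Src stood at -1.301 ± 0.25 and the ubiquitin ligase Cbl, which marks receptors for removal, at -0.73 ± 0.21. Both passed, though they too were chosen by their semaglutide effects.

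Among mice of the same group the 10 genes did not vary as 1 block. Deviations of log2 CPM from the group mean were correlated over the 77 mice, which share library depth and scaling between genes, as a description with no test. Over the 45 pairs of members Pearson's r ranged from -0.30 to 0.73 with a median of 0.35, and 38 pairs were above 0. The closest pairs were Pdgfra with Pdgfrb (r = 0.73, Spearman's rho = 0.68), Tgfbr1 with Tgfbr2 (r = 0.67, rho = 0.70) and Tgfb2 with Tgfb3 (r = 0.62, rho = 0.61). The lowest was Tgfbr1 with Pdgfa (r = -0.30, rho = -0.24).

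Each member had its own nearest genes by the same measure. For Pdgfrb they were Col6a3 (r = 0.87), Bgn (0.83) and Mrc2 (0.81), and for Pdgfra they were Emp1 (0.84), Col6a3 (0.82) and Timp3 (0.81). For Tgfb1 they were Ucp2 (0.83), Plekho2 (0.82) and Gnai2 (0.82), and Gnai2 also headed those of Pdgfa (0.76), ahead of Ccdc9 and Spint2 (0.74 each). Those of Tgfb2 were Plekhs1, Cftr and Cldn7 (0.75, 0.75 and 0.74), and those of Tgfb3 were Dpt, Aebp1 and Bicc1 (0.76, 0.76 and 0.75). Tgfbr1 was closest to Actr2, Lin7c and Tmtc3 (0.82, 0.80 and 0.80) and Tgfbr2 to Dgkd, Sptbn1 and Slc36a4 (0.82, 0.80 and 0.80). The lowest values were those of Pdgfb with Uap1l1, Flna and Cx3cl1 (0.70, 0.70 and 0.69) and of Pdgfc with Wls, Fbn1 and Col5a2 (0.72, 0.71 and 0.71). With the 2 mice farthest from the median of the member left out, r lay between 0.64 and 0.84 for these 30 pairs.

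Markers of some cell types moved with the same comparisons, while those of others changed little with semaglutide. Recruited macrophage and monocyte markers were higher in 9 of 10 with the diet, and their summed level ranged from 49.9 to 192 CPM in chow-fed, 516 to 884 in vehicle, 220 to 655 in semaglutide and 80.1 to 423 in chow reversal mice of 24 weeks. Semaglutide lowered 0, 6 and 7 of the 10 at 8, 16 and 24 weeks and chow reversal lowered 9, 8 and 9. Portal fibroblast markers (6 of 8 tested, all 6 higher with the diet) summed to 44.4 to 116, 128 to 217, 79.5 to 200 and 50.9 to 230 CPM in the same 4 groups, and semaglutide lowered 0, 0 and 3 and chow reversal 4, 6 and 6. Stellate cell markers were higher in 9 of 10 with the diet, at 239 to 290, 462 to 592, 382 to 580 and 273 to 442 CPM, semaglutide lowered 0, 0 and 1 and raised 1 at 16 weeks, and chow reversal lowered 6, 2 and 5. All 10 hepatocyte markers were lower with the diet, at 120000 to 150000 CPM in chow-fed and 53200 to 66100 in vehicle mice, and higher in 4, 5 and 7 of 10 with semaglutide, where they reached 70900 to 127000 at 24 weeks. A single gene made up much of some sums, namely Gas6 with 83.1% of the mean portal fibroblast sum, Alb with 63.7% for hepatocytes, Lyz2 with 62.9% for recruited macrophages and Dcn with 38.6% for stellate cells.

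The other 6 lists were higher with the diet in 7 of 8 T cell, 6 of 7 cholangiocyte, 4 of 7 Kupffer cell, 3 of 8 endothelial, 2 of 4 smooth muscle and 1 of 3 platelet markers tested, and lower in 1 endothelial marker. Chow reversal of 24 weeks lowered 7 of the T cell, 1 of the cholangiocyte, 4 of the Kupffer cell, 3 of the endothelial, 1 of the smooth muscle and 1 of the platelet markers. At 24 weeks semaglutide lowered 2 and raised 1 of 7 Kupffer cell markers (459 to 1370 CPM against 716 to 1140 in vehicle mice), lowered 0 of 8 T cell markers (6.59 to 16.8 against 5.74 to 21.0) and 0 of 7 cholangiocyte markers tested (14.6 to 30.2 against 11.1 to 55). It raised 1 of 8 sinusoidal endothelial markers (278 to 376 against 254 to 352), lowered 0 of 4 smooth muscle markers tested (53.3 to 94.2 against 68.1 to 108) and lowered 1 of 3 platelet markers tested (3.08 to 9.70 against 3.82 to 9.95). In chow-fed mice the summed levels were 280 to 422 CPM for Kupffer cells, 2.5 to 4.22 for T cells, 10.2 to 14.4 for cholangiocytes, 249 to 356 for endothelium, 59.2 to 85.5 for smooth muscle and 2.64 to 8.43 for platelets. No marker was at 0 in all libraries, though 5 of the 8 platelet markers were too low to test, among them Gp6 at 0 in 60 and Gp1bb in 61 of the 77. The part of these cell types in the changes of the 10 genes was not tested.

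Within groups the nearest marker list differed between members. Tgfb3 and Pdgfrb followed portal fibroblast markers (r = 0.834 and 0.745 over 77 mice), Tgfb2 followed cholangiocyte markers (0.736, with Cftr in that list) and Pdgfb followed recruited macrophage markers (0.703). Tgfb3 also followed cholangiocyte markers (0.704). Pdgfra was nearest to portal fibroblast markers (0.661). The nearest list of Pdgfc and Pdgfa depended on the measure. By r, Pdgfc was nearest to recruited macrophage markers (0.545) and Pdgfa to the 3 platelet markers tested (0.50). By Spearman's rho, Pdgfc was nearest to portal fibroblast markers (0.50) and Pdgfa to cholangiocyte markers (0.46). Tgfbr1 and Tgfbr2 were close to none of the 10 lists, with r between -0.38 and 0.29, and Tgfb1 reached at most 0.50, with platelet markers. The highest value with stellate cell markers was 0.46, for Pdgfrb.

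**Figure D4:**
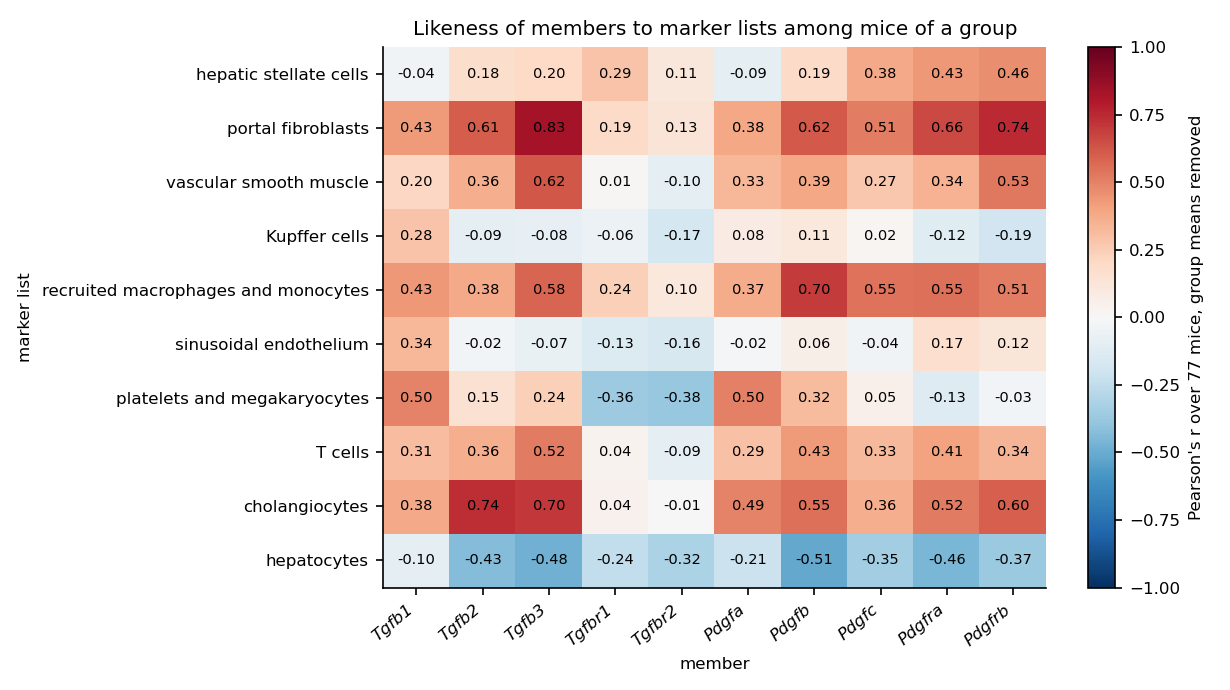
Pearson's r between each gene and the mean of each marker list over 77 mice, on log2 CPM with group means removed; colour runs from -1 to 1. Values above 0.70 are those of Tgfb3 and Pdgfrb with portal fibroblasts, Tgfb2 and Tgfb3 with cholangiocytes and Pdgfb with recruited macrophages, and both TGF-beta receptors stay at or below 0.29.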

How the data were processed

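Liver RNA from the left lateral lobe of 77 mice, 1 library each, was sequenced on a NextSeq 500 from NEBNext Ultra II Directional libraries. The authors deposited estimated counts per gene as 1 table, which they made by alignment and quantification of the reads. Per the labels they aligned reads to GRCm38 with STAR 2.7.3a and quantified with Salmon 1.2.0, after FastQC 0.11.9 and Picard. DESeq2 is named for their own tests. The annotation release and strand setting are not given in the sources used here. The values were neither normalized nor logged, 0 columns were left unused, and 55141 of 55487 identifiers matched a gene symbol. Gene positions and lengths were taken from GENCODE vM21.

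Counts were rounded to whole numbers and tested in R 4.3.3 with edgeR 4.0.16 (TMM factors, filterByExpr by group, quasi-likelihood F test, 10 groups in 1 fit), adjusted by Benjamini-Hochberg over 14904 genes, with a threshold of 0.05. CPM are counts per 1000000 counts of the TMM-scaled library, and log2 CPM used a prior count of 2. The fit was tested on simulated data. DESeq2 1.42.0 was an alternative, beside other scalings, filters, samples and sets of library numbers. With 8883190 to 37631125 counts per library, low genes such as Tgfb2 carry wide errors. Errors cover the spread between mice.

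The genes and lists were chosen with earlier results of these data known. Named were the 10 members, in each of 4 pathway lists the 4 genes with the smallest p when the semaglutide effects of the 3 times were tested jointly, and for each member the 3 genes with the highest r, predicted genes left out. The values of 1 gene that this rule names among the response genes are not reported here. Lists covered TGF-beta latency and activation, TGF-beta co-receptors and SMADs, TGF-beta response genes, PDGF partners, and markers of 10 cell types. Level per kb divides CPM by the merged exon length.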

Additional observations from a re-analysis of the deposited data

Results flagged for a closer look

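In 20 of the 100 combinations of gene and group, 1 mouse lay apart from its group by Dixon's 95% criterion on linear CPM. Chance gives about 1 in 20 for independent values with a normal spread. Here the same mice recur and most flags are high values, so an excess over chance is not shown. In vehicle mice of 16 weeks the mouse apart was replicate 6 for Tgfb2 (3.618 CPM), Tgfbr1 (43.17) and Pdgfra (19.62). That mouse was the highest of its group for 8 of the 10 genes. In semaglutide mice of 24 weeks it was replicate 3 for Pdgfb (4.884 CPM) and Pdgfra (15.56), which also was the highest for 8 of the 10.

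Other mice stood out in fewer genes. Among chow-fed mice the highest values of Tgfb1 (10.89 CPM), Tgfb2 (0.7958) and Tgfbr1 (26.91) did. In semaglutide mice of 8 weeks Tgfb2 (0.9469), Pdgfc (6.91) and Pdgfra (13.93) were high, and Tgfbr2 (23.91) was low. In those of 16 weeks Tgfb2 (1.77) and Pdgfrb (30.37) were high and Tgfbr1 (11.46) was low. Chow reversal mice had high values of Pdgfa (17.89) and Pdgfb (5.092) at 16 weeks, and of Tgfbr2 (75.76), Pdgfc (8.952) and Pdgfra (14.99) at 24 weeks. The cause was not tested.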

How the results depend on the processing

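Over 7 alternatives, the results for single genes kept their direction and side of the threshold in 669 cases, fell below the threshold in 40, rose past it in 25 and turned in 5. The count for semaglutide against vehicle at 8 weeks (3) was 6 with library totals, 1 with no filter, 7 with only the compared groups and 6 with DESeq2. At 16 weeks (6) it was 2 with no filter, 2 with only the compared groups, 1 without the later libraries and 1 with library number sets, and 2 without vehicle replicate 6, which was chosen for removal after seeing the data. Against chow reversal the count at 8 weeks (0) was 1 with library totals and 3 with only the compared groups, and at 16 weeks (0) it was 1 without the later libraries and 1 with library number sets. At 24 weeks (1) it was 2 without semaglutide replicate 3, also chosen after seeing the data. Chow reversal against chow (5) gave 3 with no filter and 2 with only the compared groups, and vehicle at 24 against 8 weeks (0) gave 1 with only the compared groups. Tgfb2 in semaglutide against chow reversal at 24 weeks turned from -0.048 to 0.023 with library totals, 0.068 without the later libraries and 0.144 with library number sets. Pdgfc turned to 0.08 in semaglutide against chow with library totals, and to -0.10 in chow reversal against chow with library number sets. Library totals moved the median of all genes by -0.30 to 0.42 on the log2 scale. The cause was not tested. Longest transcripts as lengths changed the rank of 3 genes in vehicle and 5 in chow-fed mice. No paired analysis was possible because each mouse was killed at a single time and the labels give no replicate numbers, so that the numbers used here follow the order of the samples. The library number sets are a block of neighbouring libraries and pair no mice. Tgfb2, with 2 to 118 counts per library, is limited by depth.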
